A study of Homo sapiens with 39 samples.

Results

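DOT1L and the subunits of the super elongation complex were followed as knockout targets in pooled CRISPR screens of A375, an established human melanoma line that carries an activating BRAF mutation. The 9 members were DOT1L, MLLT10, MLLT1, MLLT3, ELL, AFF1, AFF4, CDK9 and CCNT1, and their guides were taken by the gene symbol in the guide name. They were 9 of 1115 genes in a home-made epigenetic library, with 10 guides each, and 9 of 19113 genes in a whole-genome library, with 4 guides each. All 90 member guides of the epigenetic library passed the filter on low counts, as did 35 of 36 in the whole-genome library, where CDK9 was left with 3. The guide sequences were not used here, so guides are named by number.

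Every cell already lacked a subunit of Mediator, the coactivator that links transcription factors to RNA polymerase II: MED12, of its kinase module, or MED23, of its tail. Cells without MED12 received either library, and cells without MED23 the epigenetic library. Libraries were made at day 0 and after culture in DMSO or vemurafenib, which blocks mutant BRAF kinase, given at 2 µM for 8 and 14 days to MED12 knockout cells and at 1 µM for 14 days to MED23 knockout cells. Each of the 13 groups had 3 libraries, 39 in all. No screen of cells with intact Mediator was analysed here, and the labels do not say whether a knockout line was 1 clone. Dose and screen differ together with the knockout, so their parts in a difference between MED12 and MED23 knockout cells cannot be told apart.

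RNA polymerase II pauses shortly after it starts, and P-TEFb, the kinase CDK9 with its cyclin CCNT1, phosphorylates the polymerase and the pausing factors to release it. The super elongation complex holds P-TEFb on the scaffolds AFF1 or AFF4 together with ELL, which speeds the polymerase, and with MLLT1 (ENL) or MLLT3 (AF9), whose YEATS domains read acylated histones. MLLT1 and MLLT3 can instead bind DOT1L, the methyltransferase of the H3 nucleosome core over transcribed genes, which MLLT10 (AF10) also binds. Several of these proteins are known as fusion partners of KMT2A in leukaemia.

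A guide's reads count the cells that carry it, so slower division and loss of cells cannot be told apart. Libraries held 16.4 to 20.8 M reads (M, 1000000) in the epigenetic screen of MED12 knockout cells, 22.8 to 29.0 M reads in that of MED23 knockout cells and 47.8 to 87.6 M reads in the whole-genome screen. Levels are given as CPM, reads per M reads after scaling of library composition, summed over a gene's guides. Changes are given on the log2 scale, as the median over a gene's guides and as a score change, where the gene score is the mean of log2 CPM over guides, with its standard error (SE) from 3 libraries a group. A gene was called where its guides ranked together beyond an adjusted p of 0.05, from edgeR's quasi-likelihood test per guide, robust rank aggregation and Benjamini-Hochberg adjustment over all genes. That ranking sets a gene's guides against all other gene-targeting guides, and a single guide was called at the same threshold over all guides.

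In MED23 knockout cells grown in DMSO, the guides against CDK9 fell, and they were the only member guides to be called as a gene in that comparison. Their summed level was 563, 538 and 537 CPM in the 3 day 0 libraries and 142, 152 and 174 CPM in the 3 DMSO libraries of day 14. Every DMSO library lay far below every day 0 library. In gene score, 49.1% of all genes lay wholly below day 0 in this comparison, so separation as such was common. The median change was -2.34, the score change -2.72 ± 0.28 (SE, n = 3 libraries a group), and the adjusted p 0.0185. Of the 10 guides, 8 were called lower and 1, CDK9_6, was called higher, at 0.67. In this comparison 18.2% of all genes and 36.2% of all guides were called, so calls as such were common.

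The CDK9 guides differed widely in the size of their change. CDK9_10 had 39.4, 33.4 and 26.3 CPM at day 0 and 0.14, 1.17 and 0.56 CPM in DMSO at day 14, which rests on 4, 37 and 17 reads. CDK9_7 changed by -4.38 and CDK9_2 by -3.44. CDK9_6 went the other way, from 31.6, 33.5 and 31.7 CPM to 47.2, 54.1 and 52.4 CPM, with no overlap between the groups. The control guides had medians above 0 in this comparison: 1.21 for the 83 guides named CTRL, 1.17 for the 714 named Zhang and 0.42 for the 267 named AAVS1, which name a safe-harbour locus. Scaled on all control guides the median of CDK9 was -3.37 with an adjusted p of 0.0916, and without DMSO library 3 it was -2.19 with an adjusted p of 0.0510, so both settings ended the call.

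CCNT1 and ELL lay on the same side without a gene call. CCNT1 guides summed to 602, 621 and 578 CPM at day 0 and to 359, 344 and 316 CPM in DMSO, all 10 guides were below 0, and the score change was -0.99 ± 0.08. The adjusted p of CCNT1 was 0.822, with 3 guides called lower: CCNT1_3 at -2.25, CCNT1_7 at -1.60 and CCNT1_8 at -0.63. ELL guides summed to 650, 643 and 637 CPM at day 0 and to 369, 313 and 374 CPM in DMSO. For both genes the 2 groups of libraries did not overlap, where 49.1% of all genes lay wholly below day 0 in gene score. ELL had all 10 guides below 0, from -3.55 for ELL_5 to -0.36 for ELL_10, 6 of them called lower, a score change of -1.47 ± 0.11 and an adjusted p of 0.211. Scaling on the control guides or on the AAVS1 guides brought ELL past the threshold, at medians of -1.88 (adjusted p 0.00363) and -1.23 (adjusted p 0.0394).

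The scaffolds, the YEATS readers, MLLT10 and DOT1L were not called. MLLT3 guides summed to 560, 603 and 560 CPM at day 0 and 1007, 792 and 824 CPM in DMSO, with 8 of 10 guides above 0, a score change of 0.52 ± 0.17 and an adjusted p of 0.123. The DMSO libraries of MLLT3 all lay above those of day 0, as did those of 24.1% of all genes in gene score. Its score change of 0.52 was below the medians of the CTRL and Zhang guides, 1.21 and 1.17, and above that of the AAVS1 guides, 0.42. No score was computed for control guides, so these are unlike measures. The guide median of MLLT3 stood 0.58 above the median of all genes, 0.06. The median changes of the other 5 were 0.28 for AFF1, 0.22 for MLLT10, -0.01 for AFF4, -0.07 for DOT1L and -0.21 for MLLT1, with adjusted p values of 0.819 for AFF1 and 1 for the other 4. AFF1 and MLLT10 each had 1 guide far from the rest, AFF1_10 at -3.44 and MLLT10_2 at -3.16, both called lower. AFF1_10 went from 41.4, 41.3 and 39.1 CPM to 3.34, 6.86 and 1.02 CPM. Through such guides the score change of AFF1, -0.31 ± 0.09, had the opposite sign to its median.

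**Figure D1:**
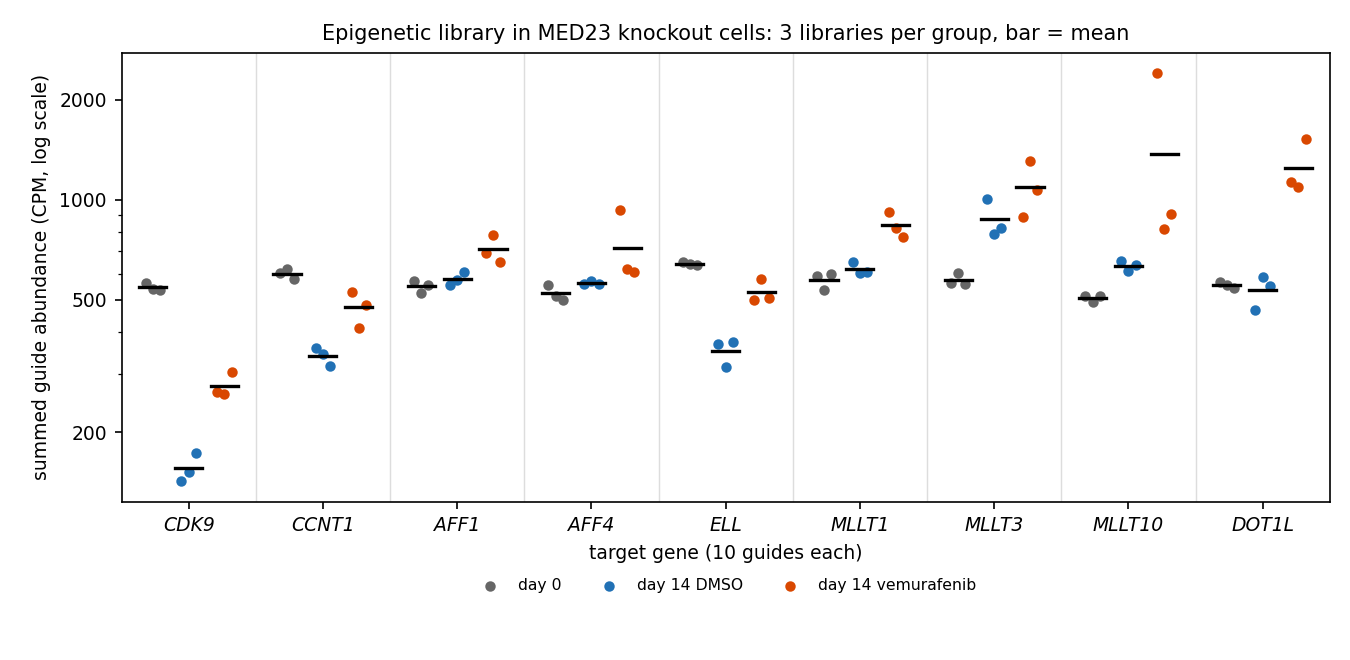
Summed guide abundance of each member in MED23 knockout cells (CPM, log axis), with 1 point per library, 3 libraries per group, and a bar at the group mean. CDK9 guides fell from 537 to 563 CPM at day 0 to 142 to 174 CPM in DMSO, and DOT1L guides stood at 1091 to 1526 CPM in vemurafenib against 465 to 587 CPM in DMSO.

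Under vemurafenib, MED23 knockout cells carried more DOT1L and ELL guides than under DMSO. DOT1L guides summed to 465, 587 and 551 CPM in the DMSO libraries (534 ± 62.7, SD, n = 3) and to 1134, 1091 and 1526 CPM in the vemurafenib libraries (1250 ± 240, SD, n = 3). At day 0 they had summed to 568, 555 and 545 CPM, so the vemurafenib libraries stood above both other groups with no overlap. All 10 DOT1L guides were above 0, from 0.36 to 2.91, with a median of 1.05, a score change of 1.22 ± 0.13 and an adjusted p of 0.0240. In this comparison 10.8% of all genes and 8.38% of all guides were called. In gene score, 36.7% of all genes lay wholly above DMSO. All genes had a median change of 0.09 and the 9 members one of 0.52, and 77 of 90 member guides were above 0.

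Of the DOT1L guides, 4 were called higher: DOT1L_2 at 2.91, DOT1L_6 at 2.10, DOT1L_1 at 1.81 and DOT1L_10 at 1.37. DOT1L_1 had 42.9, 49.7 and 53.8 CPM in DMSO and 228, 130 and 154 CPM in vemurafenib. DOT1L_6 had 30.1, 20.9 and 24.2 CPM in DMSO and 61.8, 156 and 104 CPM in vemurafenib. Neither guide's groups overlapped. DOT1L_8, at 1.90, was not called: its vemurafenib libraries held 160, 105 and 616 CPM, and in the third it made up 40.4% of the DOT1L sum. Without that vemurafenib library the median of DOT1L was 0.75 with an adjusted p of 0.0641, and without DMSO library 3 the adjusted p was 0.0986, so leaving out either ended the call.

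ELL guides summed to 369, 313 and 374 CPM in DMSO and to 501, 578 and 508 CPM in vemurafenib, still below the 637 to 650 CPM of day 0. Every vemurafenib library lay above every DMSO library. The median was 0.69, the score change 0.99 ± 0.12 and the adjusted p 0.0173, with 9 of 10 guides above 0. ELL_5 at 2.48 and ELL_7 at 1.72 were called higher, and both were also among the guides called lower in DMSO against day 0. ELL_5 had 63.0, 63.1 and 70.6 CPM at day 0, 9.91, 2.37 and 4.47 CPM in DMSO and 20.5, 39.4 and 33.5 CPM in vemurafenib. The call was lost without vemurafenib library 2 (adjusted p 0.0797) and with only the compared groups in the fit (adjusted p 0.0648).

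The vemurafenib libraries of MED23 knockout cells differed in composition, which bears on the sign of these 2 results. The most abundant guide of each held 6.61%, 9.67% and 15.2% of its reads, against 0.0817% to 0.114% in the DMSO libraries. The composition factors were 0.699, 0.514 and 0.568 in vemurafenib, and 1.24 to 1.25 in DMSO. With total reads alone and no such scaling, the median over all genes was -0.97, that of DOT1L -0.04 (adjusted p 0.0809) and that of ELL -0.37 (adjusted p 0.913). Relative to the median of all genes the change of DOT1L was 0.93 to 0.96 and that of ELL 0.60 in all 5 scalings run. A scaling shifts all genes of a library alike, so this agreement follows from the calculation and is no test of the sign.

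MLLT10, which binds DOT1L, gave values near those of DOT1L. Its guides summed to 653, 610 and 635 CPM in DMSO and to 2407, 820 and 909 CPM in vemurafenib. The groups did not overlap, and vemurafenib library 1 stood highest through MLLT10_6, which had 1452 CPM there (60.3% of the sum) and 78.0 and 118 CPM in libraries 2 and 3. The median change was 1.02, the score change 0.91 ± 0.23 and the adjusted p 0.0575, just outside the threshold, with 9 of 10 guides above 0. MLLT10_2 at 3.02, MLLT10_7 at 1.61, MLLT10_8 at 1.30 and MLLT10_9 at 0.85 were called higher. Control-guide scaling, DESeq2 per guide and 4 other alternatives of 17 brought MLLT10 past the threshold.

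CDK9 had the highest median of the members in this comparison, at 1.21, and no gene call. Its guides ranged from -0.65 to 4.49, the score change was 1.54 ± 0.28 and the adjusted p 0.190. The summed level was 142, 152 and 174 CPM in DMSO and 265, 260 and 303 CPM in vemurafenib, so the groups did not overlap, and the vemurafenib level remained below the 537 to 563 CPM of day 0. CDK9_10 at 4.49 and CDK9_8 at 1.32 were called higher, and CDK9_10 had 17.4, 14.9 and 10.2 CPM in vemurafenib. This comparison uses the same DMSO libraries as that of DMSO with day 0, so their values are not independent.

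The other 5 members were not called for vemurafenib against DMSO. MLLT1 and CCNT1 each had a median of 0.52, AFF4 of 0.39, AFF1 of 0.35 and MLLT3 of 0.27, with adjusted p values of 0.807 to 1. CCNT1 guides summed to 530, 412 and 484 CPM in vemurafenib, with CCNT1_3 at 1.40 and CCNT1_7 at 1.20 called higher. MLLT1 guides summed to 650, 601 and 605 CPM in DMSO and to 920, 822 and 773 CPM in vemurafenib. AFF1 guides summed to 554, 573 and 607 CPM in DMSO and 694, 783 and 653 CPM in vemurafenib, and AFF4 guides to 559, 571 and 559 CPM and 933, 618 and 606 CPM. In gene score, 8 of the 9 members had all vemurafenib libraries above all DMSO libraries, where 10.8% of all genes were called and 36.7% of all genes lay above in this way. MLLT3 was the exception, with a score change of 0.10 ± 0.19.

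Set against day 0, the vemurafenib libraries of MED23 knockout cells held more DOT1L and MLLT10 guides, and both genes were called. All 10 DOT1L guides were above 0, from 0.09 to 2.03, with a median of 1.04, a score change of 0.99 ± 0.09 and an adjusted p of 0.00539, and 6 guides were called higher. MLLT10 had 9 of 10 guides above 0, a median of 0.88, a score change of 0.90 ± 0.23, an adjusted p of 0.00230 and 5 guides called higher. The MLLT10 sums were 512, 491 and 515 CPM at day 0 and 2407, 820 and 909 CPM in vemurafenib, with no overlap. In gene score, 27.1% of all genes lay wholly above day 0 and 39.1% wholly below. Here 16.2% of all genes and 25.3% of all guides were called. The median over all genes was 0.06 and over the members 0.42.

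Both calls held in all 17 alternatives run, but the size, and with total reads alone the sign, followed the scaling. Scaled on all control guides, whose CTRL and Zhang guides had medians of 1.00 and 0.96 here, the medians were 0.23 for DOT1L and 0.06 for MLLT10. With total reads alone they were -0.16 and -0.34. Relative to all genes they were 0.98 to 0.99 and 0.81 to 0.82 in all 5 scalings, which again follows from the calculation. P-TEFb and ELL lay on the other side with no call: CDK9 had a median of -1.30 (score change -1.17 ± 0.06, adjusted p 0.127), CCNT1 of -0.32 and ELL of -0.37, both with an adjusted p of 1. MLLT3 had all 10 guides above 0 and a median of 0.38 with an adjusted p of 0.351.

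In MED12 knockout cells grown in DMSO, MLLT3 was the member that was called, with higher guides at both days. Its guides summed to 715, 765 and 709 CPM at day 0, to 1132, 1121 and 961 CPM at day 8 and to 1564, 1843 and 1183 CPM at day 14. Both later groups lay wholly above day 0, as did 15.9% of all genes at day 8 and 16.9% at day 14 in gene score. The median was 0.57 at day 8 (score change 0.39 ± 0.07, adjusted p 0.0218) and 0.99 at day 14 (score change 0.67 ± 0.18, adjusted p 0.0178), each with 9 of 10 guides above 0. MLLT3_1 was the exception, at -0.89 and -1.49. In these comparisons 7.89% of all genes were called at day 8, and 5.2% of all genes and 2.27% of all guides at day 14, none of the MLLT3 guides among them.

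The MLLT3 medians stood above those of the control guides. The CTRL guides had medians of 0.39 at day 8 and 0.62 at day 14, the Zhang guides of 0.38 and 0.58, and the AAVS1 guides of 0.19 and 0.38. The score changes of MLLT3, 0.39 and 0.67, lay close to the CTRL and Zhang medians, but no score was computed for control guides, so these are unlike measures. Scaled on all control guides MLLT3 still passed, at 0.27 (adjusted p 0.00563) and 0.58 (adjusted p 0.0143). Limma on gene scores and edgeR on summed counts, which test against no change, did not call MLLT3 at either day (adjusted p 0.492 and 0.592 at day 8, 0.101 and 0.0642 at day 14). The call was also lost at day 8 without DMSO library 1 (adjusted p 0.182), and at day 14 without DMSO library 1 (adjusted p 0.230) or 2 (adjusted p 0.159).

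Neither P-TEFb subunit was called by rank aggregation in MED12 knockout cells. CCNT1 guides summed to 294, 301 and 305 CPM at day 0 and to 167, 591 and 127 CPM in DMSO at day 14. In this sum libraries 1 and 3 were below day 0, and library 2 was above it through CCNT1_6, which alone held 422 CPM there. In gene score all DMSO libraries of day 14 lay below day 0, as did those of 37.1% of all genes. Limma on gene scores called CCNT1 at day 14 (adjusted p 0.00601), where it called far more genes than rank aggregation did. The median was -1.22, the score change -1.42 ± 0.16 and the adjusted p 0.0672, and at day 8 the median was -0.73 with an adjusted p of 0.0632. CDK9 guides summed to 540, 510 and 531 CPM at day 0 and 662, 468 and 750 CPM at day 14, with a median of -0.31, a score change of -0.58 ± 0.35 and an adjusted p of 1. CDK9_2 was at -3.05 and CDK9_9 at 3.95. CDK9_9 had 9.69, 3.28 and 4.03 CPM at day 0 and 251, 10.3 and 0.56 CPM at day 14, so its rise was led by library 1, and in library 3 it fell. CDK9_10 rose in all 3 libraries, so the guides of 1 gene went both ways. In gene score CDK9 overlapped day 0 and was lower in all 3 pairs of the same number, as were 40.1% of all genes.

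ELL and the remaining members were not called in DMSO either. ELL guides summed to 604, 578 and 569 CPM at day 0 and 686, 542 and 360 CPM at day 14, a spread that took in the day 0 values, with a median of -0.52, a score change of -1.07 ± 0.54 and an adjusted p of 0.724. At day 8 ELL had a median of -0.49, and without DMSO library 1 of day 8 it was called at -1.29 (adjusted p 0.0374). DOT1L had medians of 0.22 at day 8 and 0.23 at day 14 (score change 0.08 ± 0.16), MLLT10 of 0.32 and 0.47, and MLLT1 of 0.45 and 0.86. MLLT10_6, at 1.19, was the single member guide called at day 14. AFF1 and AFF4 had medians of 0.33 and 0.07 at day 14.

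**Figure D2:**
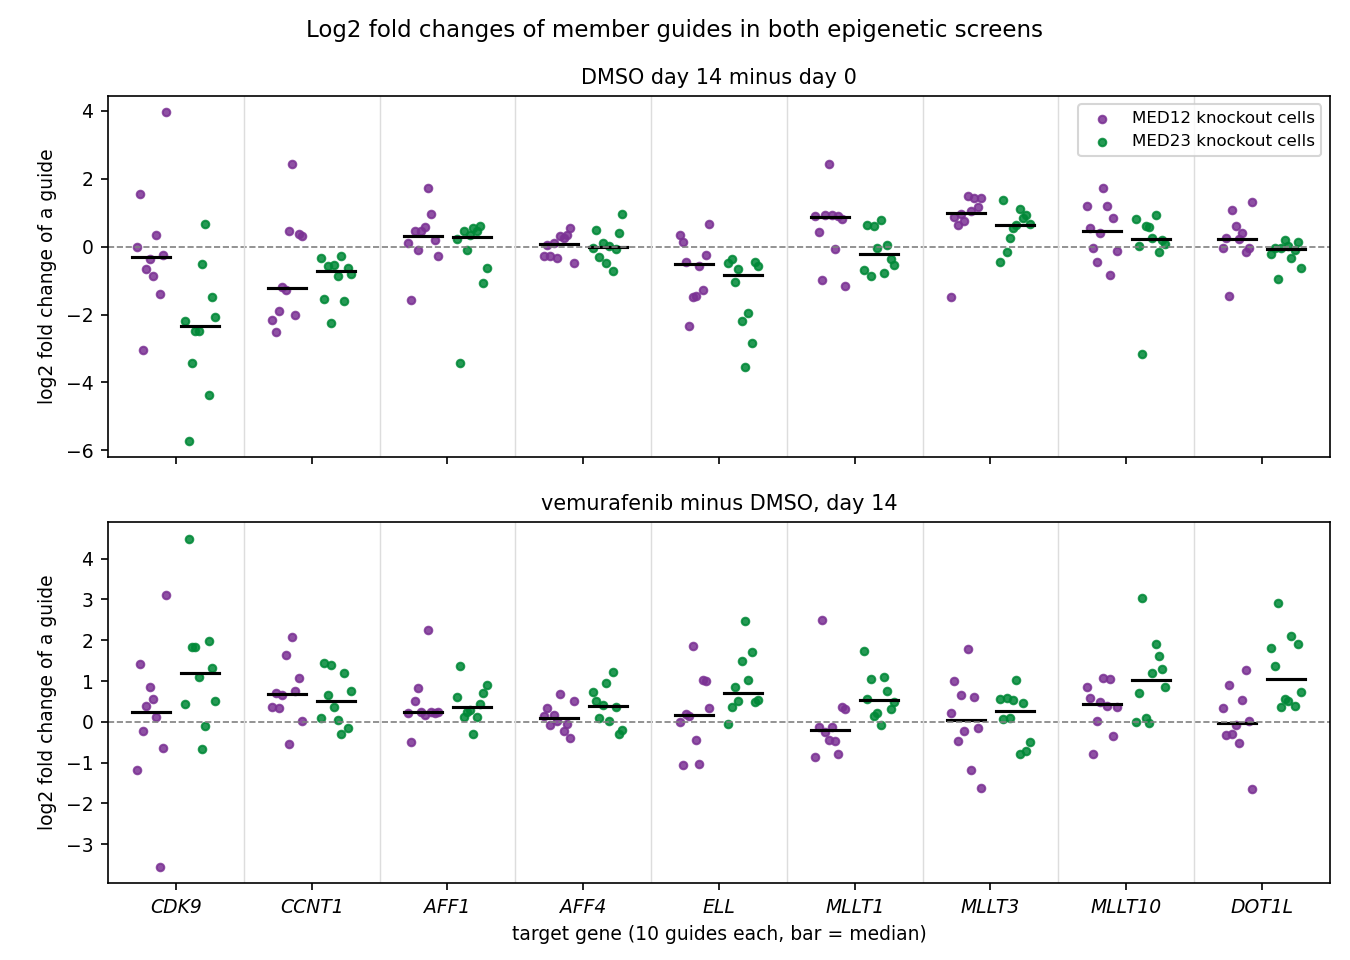
Log2 fold change of each member guide (points, 10 per gene) with the gene's median (bar) in both epigenetic screens; the upper panel shows DMSO at day 14 minus day 0 and the lower panel vemurafenib minus DMSO at day 14. In the upper panel the CDK9 median was -2.34 in MED23 knockout and -0.31 in MED12 knockout cells, and in the lower panel all 10 DOT1L guides of MED23 knockout cells were above 0.

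No member was called for vemurafenib against DMSO in MED12 knockout cells, at day 8 or at day 14. DOT1L guides summed to 861, 920 and 1202 CPM in DMSO and to 541, 815 and 1414 CPM in vemurafenib at day 14, and the groups overlapped. The DOT1L median was -0.03, with guides from -1.64 to 1.26, a score change of -0.15 ± 0.43 and an adjusted p of 0.961. In gene score all 9 members overlapped between the groups at both days, as did 93.5% of all genes at day 8 and 93.2% at day 14. Between libraries of the same number, the sums of CDK9 and CCNT1 were higher in vemurafenib in all 3 pairs at both days. The share of all genes with such sums was not computed, and single guides led some of the day 14 sums. In gene score both were higher in 2 of 3 pairs, and no member lay on 1 side in all 3 pairs at day 14; at day 8 MLLT3 was lower in all 3, as were 14.9% of all genes. At day 14, 1.43% of all genes and 0.0491% of all guides were called, and at day 8, 1.7% of all genes. By edgeR, 1 member at day 14 and none at day 8 had an unadjusted p under 0.05 (exact rank aggregation), and DESeq2 per guide, limma and edgeR on summed counts called none at either day.

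The other members' medians at day 14 were 0.67 for CCNT1, 0.44 for MLLT10, 0.25 for CDK9, 0.23 for AFF1, 0.16 for ELL, 0.08 for AFF4, 0.04 for MLLT3 and -0.19 for MLLT1. At day 8 the 9 medians lay between -0.13 and 0.26. The change in drug effect from day 8 to day 14 was called for no member, with 0.538% of all genes called, and vemurafenib at day 14 against day 0 for no member, with 3.23% called. In that last comparison MLLT3 had a median of 0.78, AFF1 of 0.71, MLLT10 of 0.69 (adjusted p 0.149) and CDK9 of -0.29. EdgeR on summed counts called 5 members there, among them CDK9 at 1.63, opposite in sign to its median, and limma called 1. The same methods called 573 and 404 of all 1115 genes there, so 5 of 9 lies near the background.

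In these vemurafenib libraries single member guides stood very high in 1 library each. The spread of the gene score over the 3 vemurafenib libraries of day 14 had a median SD of 0.65 over the members and of 0.35 over all genes, and in MED23 knockout cells of 0.19 and 0.18. CDK9_9 in library 1 had 9.69 CPM at day 0, 64.9 and 160 CPM in DMSO and vemurafenib at day 8, and 251 and 2221 CPM in DMSO and vemurafenib at day 14. CCNT1_6 in library 2 had 30.2 CPM at day 0, 105 and 198 CPM at day 8 and 422 and 1822 CPM at day 14. Each was high in the same numbered library in DMSO and in vemurafenib. At day 14 under vemurafenib CDK9_9 made up 75.9% of the CDK9 sum of its library and CCNT1_6 85.1% of the CCNT1 sum.

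AFF1, MLLT3 and MLLT10 each had such a guide too. AFF1_6 in library 2 went from 126 CPM at day 0 to 749 CPM in DMSO and 4816 CPM in vemurafenib at day 14, or 60913 reads and 76.2% of the AFF1 sum. MLLT3_5 in library 2 went from 79.5 to 396 and 2102 CPM, and MLLT10_5 in library 3 from 70.3 to 425 and 1216 CPM. The summed levels of CDK9 in vemurafenib, 2927, 1180 and 769 CPM, and of CCNT1, 248, 2140 and 203 CPM, were led by such guides: CDK9_9 in library 1, CDK9_10 in library 2 with 829.9 CPM (70.3% of the sum), and CCNT1_6 in library 2.

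**Figure D3:**
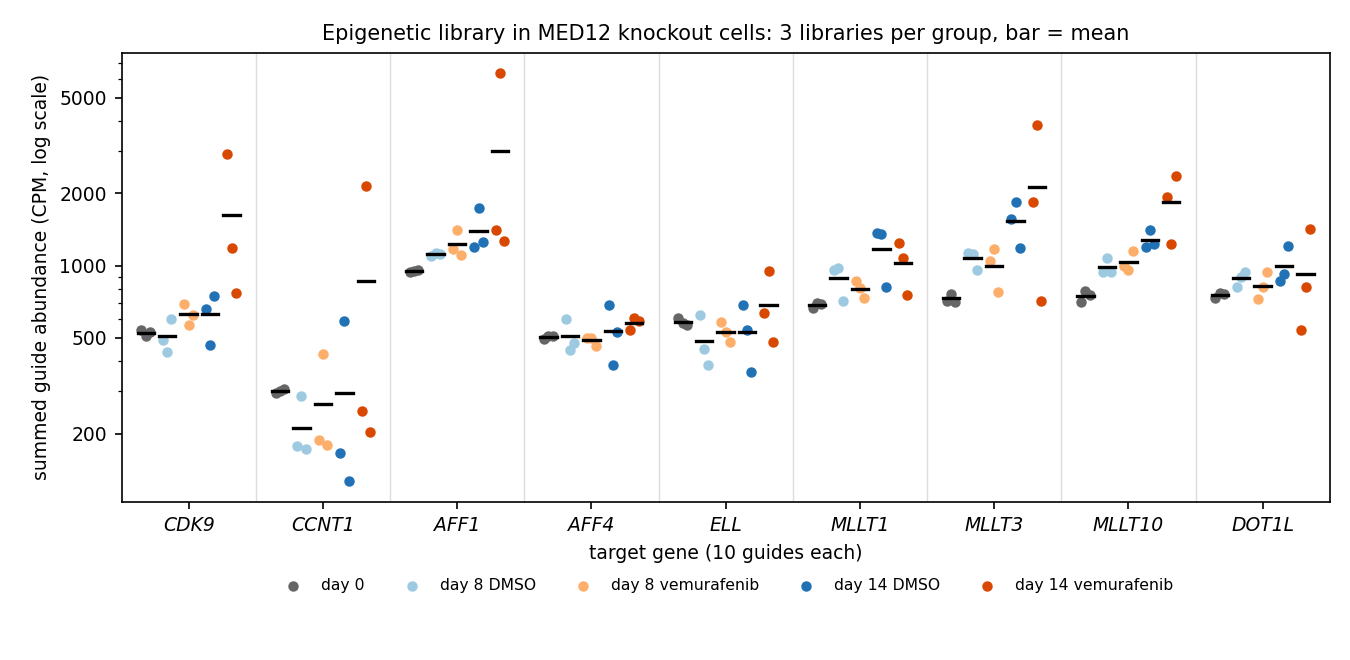
Summed guide abundance of each member in the epigenetic screen of MED12 knockout cells (CPM, log axis), with 1 point per library, 3 libraries per group, and a bar at the group mean. The day 0 libraries lie close together and the vemurafenib libraries of day 14 spread widely, as for CCNT1 at 203 to 2140 CPM.

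The 2 knockouts were then compared in 1 fit of the day 0 and day 14 libraries of both epigenetic screens. The drug effect on DOT1L was lower in MED12 than in MED23 knockout cells by a median of 1.32 over its guides (difference -1.32, with 9 of 10 guides below 0), and this difference was called at an adjusted p of 0.0273. With both screens scaled together the difference in score was -1.18 ± 0.45, and with each screen scaled on its own the score change was -0.15 ± 0.43 in MED12 and 1.22 ± 0.13 in MED23 knockout cells. In this comparison 4.22% of all genes were called and no other member was: CDK9 had a difference of -1.33 (adjusted p 0.167), ELL of -0.32 (adjusted p 1) and MLLT10 of -0.11 (adjusted p 0.569). With total reads alone the DOT1L difference was -0.72 (adjusted p 0.0456). The call held in 18 of 23 alternatives and was lost for edgeR on summed counts (-1.14, adjusted p 0.0770) and without MED12 knockout DMSO library 3 (adjusted p 0.0701), MED12 knockout vemurafenib library 1 (adjusted p 0.276), or MED23 knockout DMSO library 1 (adjusted p 0.0848) or 3 (adjusted p 0.0804).

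For growth in DMSO, CDK9 differed: its change from day 0 to day 14 was higher in MED12 than in MED23 knockout cells by a median of 1.87 (8 of 10 guides above 0, difference in score 2.03 ± 0.45, adjusted p 0.0368), with 5.92% of all genes called. CDK9_10 was the widest case. It had 39.4, 33.4 and 26.3 CPM at day 0 and 0.14, 1.17 and 0.56 CPM at day 14 in MED23 knockout cells, and 53.2, 49.4 and 43.1 CPM at day 0 and 73.5, 198.1 and 156 CPM at day 14 in MED12 knockout cells. The other 8 members were not called for this difference. The CDK9 call held in 17 of 23 alternatives and was lost under control-guide scaling (2.59, adjusted p 0.0891), with only the compared groups in the fit (1.84, adjusted p 0.155), and without MED12 knockout DMSO library 1 (adjusted p 0.369) or 3 (1.16, adjusted p 0.277) or MED23 knockout DMSO library 1 (adjusted p 0.0644) or 3 (adjusted p 0.119).

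As a description of single guides, the 90 member guides had a Pearson r of 0.40 (Spearman rho 0.57) between the knockouts for growth in DMSO and of 0.00 for vemurafenib against DMSO. Of the 90, 66 had the same sign in growth and 56 in the drug comparison. Over all 11150 gene-targeting guides r was 0.46 for growth and 0.10 for the drug, with the same sign in 65.2% and 53.4%. Guides of 1 gene share their target, so they are not independent points.

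**Figure D4:**
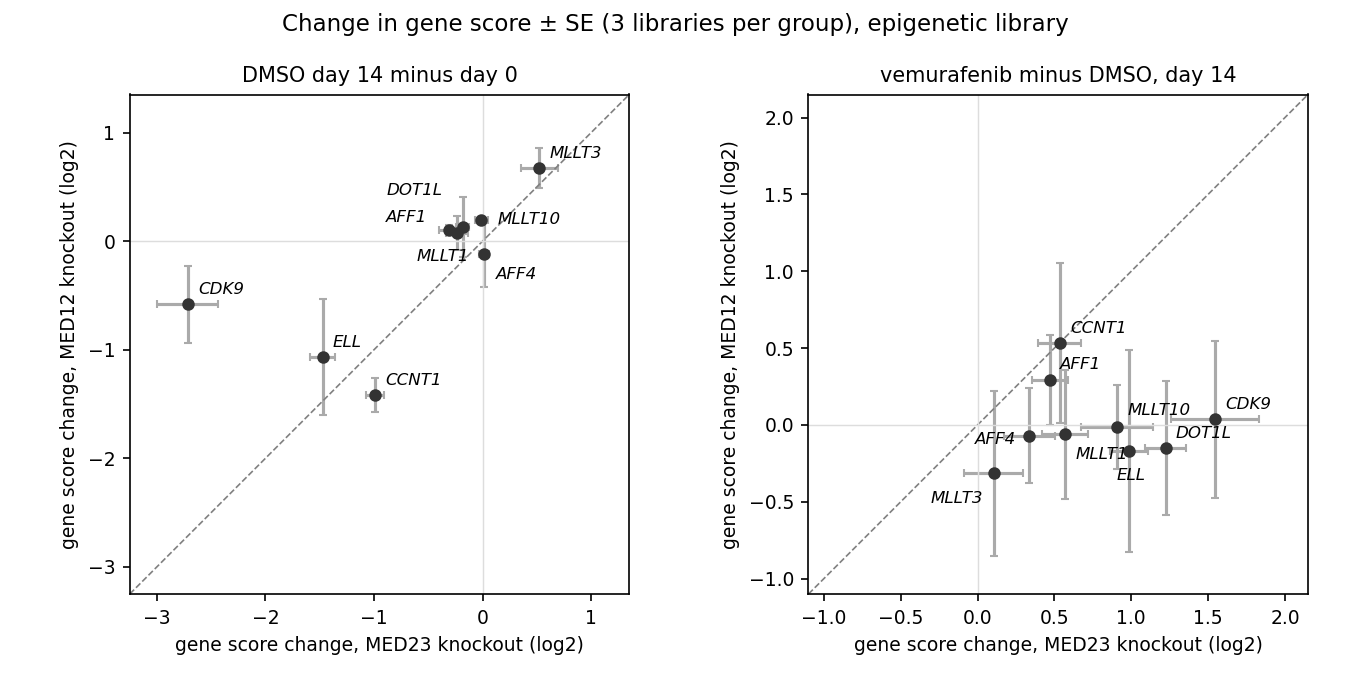
Change in gene score (log2) of the 9 members in MED23 knockout (horizontal) and MED12 knockout cells (vertical) for DMSO at day 14 minus day 0 (left) and vemurafenib minus DMSO at day 14 (right), with bars for the SE from 3 libraries per group and a dashed line of equality. CDK9 lies far to the left of the line in growth (-2.72 against -0.58), and DOT1L to its right in the drug comparison (1.22 against -0.15). The SE leaves out the pairing of libraries by number.

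With the whole-genome library in MED12 knockout cells, no member was called in any of the 6 comparisons. Some P-TEFb guides reached 0 reads. CDK9_1 had 17, 22 and 49 reads at day 0 and 0 reads in all 12 later libraries. CDK9_2 had 93, 57 and 72 reads at day 0 and 0 in all 6 libraries of day 14, and CCNT1_4 had 115, 44 and 82 reads at day 0 and 0 in the same 6. CDK9_3 behaved otherwise, with 542, 453 and 78 reads at day 0 and 2235, 913 and 0 reads in DMSO at day 14, so it was high in libraries 1 and 2 and gone from library 3. CDK9_4 had 0, 0 and 6 reads at day 0 and did not pass the filter.

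Member guides also varied between libraries of 1 group. CCNT1_3 had 354, 466 and 242 reads at day 0 and 0, 2566 and 112 reads in DMSO at day 14. DOT1L_1 had 2420, 517 and 285 reads in DMSO and 5368, 630 and 77 reads in vemurafenib at day 14, so library 1 was high in both. ELL_3 had 233, 331 and 286 reads at day 0 and 10, 0 and 4 reads in DMSO at day 14. The number of member guides at 0 reads was 0 to 1 of 36 per library at day 0, 6 to 7 in DMSO and 7 to 8 in vemurafenib at day 14. Over all guides the share at 0 was 0.227% to 0.262%, 7.41% to 8.70% and 9.48% to 10.3%.

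By rank aggregation the background of calls was low throughout this screen. Genes called made up 0.0262% for vemurafenib against DMSO at day 8, 0% at day 14, 0.262% for growth in DMSO at day 8, 0.152% at day 14, 0.0524% for vemurafenib at day 14 against day 0 and 0% for the change in drug effect between the days. At the comparisons with 0 calls, 1001 and 1018 of 19101 genes had an unadjusted p under 0.05 by exact rank aggregation. Of all guides 0% were called for growth at day 14. The adjusted p for growth at day 14 was 0.483 for CDK9 and 0.980 for CCNT1, and the drug effect at day 14 had a median of 0.86 for DOT1L (score change 0.54 ± 1.43) and of 0.88 for MLLT10 (0.15 ± 0.65). MLLT10 had all 4 guides above 0 for growth at day 14, with a median of 1.02 and a score change of 0.69 ± 0.17, against a median of 0.30 over all genes and of 0.88 over the guides named as having no current target. ELL was called by limma for vemurafenib against day 0, at a score change of -3.59 (adjusted p 0.0431), and MLLT10 by edgeR on summed counts in the same comparison, at 2.22 (adjusted p 0.0286). These methods called far more genes there than rank aggregation did, as given in the closing section. The limma value was opposite in sign to the guide median of ELL, which stood 0.32 above the median of all genes, 0.27.

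**Figure D5:**
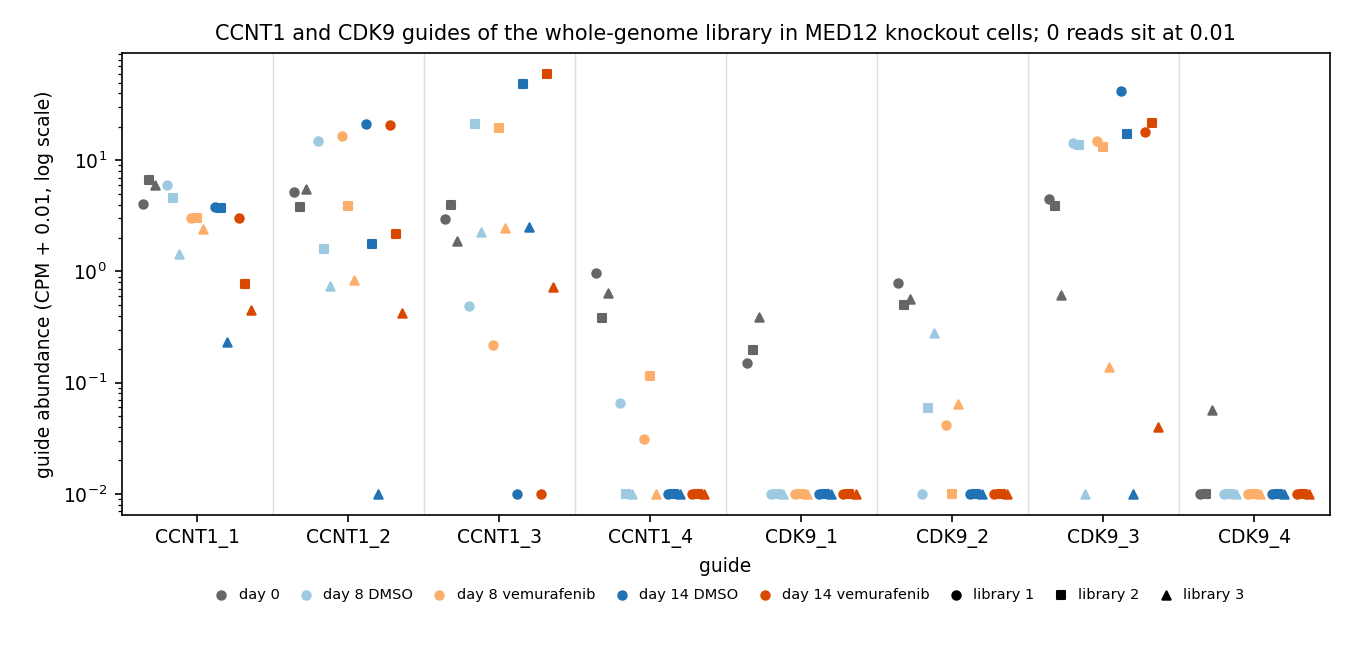
Abundance of the 4 CCNT1 and 4 CDK9 guides of the whole-genome library in each library of MED12 knockout cells (CPM plus 0.01, log axis), coloured by group and shaped by library number; points at 0.01 had 0 reads. CDK9_1 sat at 0 reads in all 12 libraries after day 0, and CDK9_3 was high in libraries 1 and 2 and at 0 reads in library 3 in DMSO.

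Genes that act beside the members were read from lists of 43 elongation genes, of which the epigenetic library targeted 26 and the other library all 43. None of them was called for vemurafenib against DMSO at day 14 in either knockout, and none in the whole-genome screen. For growth in DMSO in MED23 knockout cells 18.2% of all genes were called, 62 of 1115 higher and 141 lower. Of the 26, 2 were higher and 0 lower: AFF2, a paralogue of the scaffolds (0.62, adjusted p 0.0421), and EAF2, a partner of ELL (0.55, adjusted p 0.0122). Both medians lay below those of the CTRL and Zhang guides, 1.21 and 1.17, and above that of the AAVS1 guides, 0.42. FACT and SPT6, histone chaperones that travel with the polymerase, had a median of -2.05 over 3 genes, and the PAF1 complex, which joins the elongating polymerase, of -1.29 over 6, none of them called. SUPT6H, the SPT6 gene, was at -2.05 with an adjusted p of 0.123, and RTF1 of the PAF1 complex had a score change of -2.84 ± 0.41 with an adjusted p of 0.0634. Against day 0, where 16.2% of all genes were called and 114 of 1115 were lower, the vemurafenib libraries had 5 of 26 lower: SUPT16H (-2.72, adjusted p 0.0117) and SSRP1 (-1.32, adjusted p 0.0329) of FACT, RTF1 (-1.76, adjusted p 0.0119), RNF40, of the ligase that ubiquitinates H2B (-1.39, adjusted p 0.0282), and CDK12, a kinase related to CDK9 (-0.75, adjusted p 0.0387).

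In MED12 knockout cells the calls among these genes fell on KMT2A and MEN1, a methyltransferase and its cofactor. KMT2A guides were lower in DMSO at day 8 (-0.91, score change -1.16 ± 0.36, adjusted p 0.0226), 1 of 26 where 7.89% of all genes were called. MEN1 guides were lower under vemurafenib than DMSO at day 8 (-0.33, adjusted p 0.0406) and lower under vemurafenib at day 14 than at day 0 (-1.38, score change -2.24 ± 0.10, adjusted p 0.0418), 1 of 26 each, where 1.7% and 3.23% of all genes were called. A single gene of 26 is near these shares. Between the knockouts, the growth difference was higher in MED12 knockout cells for RTF1 (1.75, adjusted p 0.0261) and lower for KMT2A (-0.99, adjusted p 0.00662) and EAF2 (-0.77, adjusted p 0.0429). These were 1 higher and 2 lower of 26, where 5.92% of all genes were called.

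Across the 24 epigenetic libraries, with each screen centred on its day 0, the genes whose scores were most like a member's by Pearson r are given as a description. CDK9 was most like SUPT6H (0.96), H3F3A (0.96) and CCT4 (0.95). CCNT1 was most like NPM1 (0.90), MTA2 (0.89) and ELP2 (0.87), and ELL like H2AFX (0.93), PRMT1 (0.90) and CENPC (0.89). DOT1L was most like CDK8 (0.83), MED12 (0.82) and TAF6L (0.82), and MLLT10 like NF1 (0.77), CDK8 (0.77) and SUPT20H (0.75). MLLT1 was most like MAP2K2 (0.88), MLLT3 like CEBPA (0.80), AFF1 like GSE1 (0.78) and AFF4 like JADE1 (0.78). Among the members themselves the highest values were 0.72 for DOT1L with MLLT10, 0.64 for ELL with CDK9 and 0.60 for MLLT1 with MLLT3. These libraries share cells, depth and groups, so the values are not independent evidence of a relation.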

How the data were processed

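The 3 deposited tables, 1 per screen, hold raw counts of reads for each guide, which the authors had not normalized. Per the submitters' processing notes the tools were bcl2fastq, HISAT2 and HTSeq; the sources used here do not give versions, the guide reference or the genome build. Guides had been amplified from genomic DNA by PCR with no molecular identifiers mentioned, so reads are not independent molecules. The labels do not say that the 3 libraries of a group were separate cultures, so p-values measure the spread between these libraries, which may be technical.

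EdgeR 4.0.16 in R 4.3.3 was run on the counts. The filterByExpr function, with a minimum count of 10 and a minimum total of 15, kept 12214 of 12214 and 77158 of 77441 guides, which were scaled with TMM and fitted with a quasi-likelihood model of 1 mean per group over all libraries of a table. For the comparison of knockouts, both epigenetic tables were joined on guide name. Guides were ranked by signed p, and the ranks of a gene with at least 3 tested guides were combined by robust rank aggregation (alpha 0.25) against an exactly computed null, 2-sided, with Benjamini-Hochberg adjustment over 1115 or 19101 genes and a threshold of 0.05. Gene scores added 0.5 to each count. The scripts were tested on simulated data.

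In MED12 knockout cells libraries with the same number deviated together, so the numbers pair them. The SE of a score change treats the groups as independent and leaves out this pairing. The SEs of MED12 and MED23 knockout cells are therefore not directly comparable. Every correlation was over 0.1, at 0.335 to 0.896 in the epigenetic and 0.460 to 0.843 in the whole-genome screen. In MED23 knockout cells this held at every number for the vemurafenib and day 0 libraries alone (0.274 to 0.331). DMSO library 3 correlated with the day 0 and vemurafenib libraries of its number (0.283 and 0.296). DMSO libraries 1 and 2 did not (-0.143 to -0.066), so a replicate block does not pair these. No 2 libraries of a group differed by as little as sampling noise. Alternatives were control-guide scaling, DESeq2 1.42.0 size factors, no filter, DESeq2 per guide, limma 3.58.1 on gene scores, edgeR on summed counts, alpha 1, the compared groups only, a replicate block and leaving out each library; AAVS1-guide scaling and total reads only were chosen after seeing the data. The named genes are the 9 members and the lists of elongation genes; members and lists were chosen with earlier results of these data known. Symbols are those of the tables, and 0 columns lacked a sample. No guide sequences or coordinates were used.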

Additional observations from a re-analysis of the deposited data

Results flagged for a closer look

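For 2 members the same contrast differed between the knockouts by a test of the difference itself. The change of DOT1L guides under vemurafenib against DMSO at day 14 was lower in MED12 than in MED23 knockout cells (difference -1.32, adjusted p 0.0273; 9 of 10 guides in that direction). The change of CDK9 guides in DMSO from day 0 to day 14 was higher in MED12 than in MED23 knockout cells (difference 1.87, adjusted p 0.0368; 8 of 10 guides in that direction). For DOT1L the knockout, the dose of vemurafenib and the screen cannot be told apart, and for CDK9, whose difference rests on DMSO and day 0 libraries alone, the knockout and the screen.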

How the results depend on the processing

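Over all member changes and alternatives run, 2678 of 2759 stayed on their side of the threshold with no called value changing sign, 50 passed it newly, 24 no longer passed it and 7 were reversed (a change of sign with a call before or after). Medians changed sign in 367 cases, 360 of them without a call or a change of side, 165 of these leaving out 1 library. The cause was not tested. The reversed ones were DOT1L (-0.037) and ELL (-0.37) for vemurafenib against DMSO, and DOT1L (-0.16) and MLLT10 (-0.34), both still called, for vemurafenib against day 0 in MED23 knockout cells with total reads alone, AFF1 for growth there by limma (-0.31), and, for vemurafenib at day 14 against day 0 in MED12 knockout cells, CDK9 in the epigenetic screen by edgeR on summed counts (1.63) and ELL in the whole-genome screen by limma (-3.59). The median of all genes moved with the scaling by up to -1.74 (whole-genome vemurafenib against day 0, total reads alone) and by -1.03 with control guides for MED23 knockout growth.

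Members called in MED23 knockout cells were, for vemurafenib against DMSO, 2 as reported, 7 by limma, 6 on summed counts, 0 with total reads alone and 1 to 2 leaving out 1 library. For growth they were 1, 5 by limma and 4 on summed counts. They were 3 with alpha 1, 2 with AAVS1 guides and 0 to 1 leaving out 1 library. With control guides the 1 was ELL, not CDK9. For vemurafenib against day 0 they were 2, 8 by limma and 9 on summed counts. In the epigenetic screen of MED12 knockout cells, growth gave 1 member at day 8 and 0 by limma and on summed counts. At day 14 it gave 1, 2 on summed counts and 0 to 1 leaving out 1 library. By limma CCNT1 was called at day 14 and MLLT3 was not. Vemurafenib at day 14 against day 0 gave 0 members there, 1 by limma and 5 on summed counts, and in the whole-genome screen 0, 1 and 1. Between the knockouts the drug effect gave 1 member, 0 on summed counts and 0 to 2 leaving out 1 library. Growth gave 1, 0 with control guides or only the compared groups and 0 to 1 leaving out 1 library.

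Genes called moved by over 1.5 times, as reported, by limma and on summed counts. Of 1115 in MED23 knockout cells they were 120, 433 and 285 for vemurafenib against DMSO. For growth they were 203, 692 and 549 (107 with control guides, 317 with alpha 1). Against day 0 vemurafenib gave 181, 603 and 604 (98 with control guides, 70 with total reads). By limma and on summed counts the members' share was near these for growth and above them otherwise. In MED12 knockout cells of the epigenetic screen they were 88, 134 and 25 for growth at day 8 (147 with alpha 1), 58, 398 and 311 at day 14, 36, 404 and 573 for vemurafenib against day 0, 19, 1 and 0 for vemurafenib against DMSO at day 8, 6, 0 and 0 for the change between the days, and 30 on summed counts against 16 for vemurafenib against DMSO at day 14. Between the knockouts they were 47 and 144 by limma for the drug effect, and 66, 234 and 151 for growth. In the whole-genome screen they were 50, 102 and 0 for growth at day 8 (28 with control guides, 27 with total reads), 29, 1603 and 276 at day 14 (15 with DESeq2 per guide, 16 with total reads), 10, 2339 and 3554 for vemurafenib against day 0 (6 with control guides or DESeq2 per guide, 23 with the compared groups only, 4 with total reads), 5, 0 and 0 for vemurafenib against DMSO at day 8, and 1 against 0 at day 14 with the compared groups only.

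With the replicate block no member's call changed in any comparison; the DOT1L difference between knockouts was -1.36 (adjusted p 0.00912) and that of CDK9 1.70 (adjusted p 0.0286). Genes called with the block were 147 against 88 for growth at day 8, 97 against 58 at day 14, 33 against 19 for vemurafenib at day 8 and 12 against 6 for the change between the days in the epigenetic screen of MED12 knockout cells, and 110 against 50 for growth and 1 against 5 for vemurafenib at day 8 and 1 against 0 at day 14 in the whole-genome screen. In MED23 knockout cells the numbers pair vemurafenib with day 0 (correlations 0.27 to 0.33). Blocked, DOT1L was at 1.02 (adjusted p 0.0103) and MLLT10 at 0.89 (adjusted p 0.00620) in that comparison. Of the DMSO libraries number 3 correlated likewise (0.28, 0.30), 1 and 2 did not.

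At day 0 the CDK9 guides of the whole-genome library had 0 to 542 reads, so their changes rest on few reads.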
